A study of Mus musculus with 13 samples.

Results

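A set of 8 genes of the Polycomb repressive complexes was followed here across sorted bone marrow stem and progenitor cells of mice that carry the PML-RARA fusion and of wild-type mice. The genes were Cbx2, Cbx7, Cbx8 and Bmi1 of Polycomb repressive complex PRC1, and Ezh1, Ezh2, Eed and Suz12 of PRC2. They are 8 of 16299 genes that the arrays measured, and each was measured by the probe sets annotated to it alone. All 8 had at least 3 such probe sets and passed the filter on low values that left 10586 genes for the tests. The members were chosen by their role in the complexes and by their log2 intensities in these 5 groups, which were known beforehand. Cbx8 was selected on its level in mCG-PR SLAM cells, so its values are a description with no test. For the other members the adjusted p-values come from a limma fit over all 10586 genes and tell where a member stood in that fit. They are not an independent test.

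The mutant mice had the genotype mCG-PR N17, in which the human fusion is expressed from the murine Ctsg locus. Ctsg encodes cathepsin G, a protease of early myeloid cells, and PML-RARA is the fusion found in acute promyelocytic leukaemia. All mice were of the strain Bl/6 Taconic, and each of the 13 arrays held RNA of sorted marrow cells from the femurs and tibia of 1 mouse. KLS cells (Kit positive, lineage negative, Sca1 positive) came from mCG-PR mice of 6 weeks (n = 3) and 13 weeks (n = 2) and from wild-type (WT) mice of 12 to 13 weeks (n = 4). SLAM cells, a rarer fraction enriched for stem cells, came from mCG-PR mice of 7 weeks (n = 2) and WT mice of 6 weeks (n = 2). The labels do not describe the gates. No WT KLS mouse was 6 weeks old, so genotype and age cannot be told apart in the comparison of mCG-PR KLS of 6 weeks with WT KLS. For the same reason population and age cannot be told apart in WT SLAM minus WT KLS. The ages were close in mCG-PR SLAM against mCG-PR KLS of 6 weeks, so the steps between populations are not matched for age. In bulk samples of this kind, fewer cells of a type and less RNA per cell cannot be told apart.

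Polycomb complexes keep developmental genes silent through marks on histones. PRC2 methylates histone H3 on lysine 27: Ezh2 or Ezh1 is the catalytic subunit, Eed binds the finished mark and stimulates the enzyme, and Suz12 is the scaffold without which the complex falls apart. Canonical PRC1 reads that mark through a chromobox protein such as Cbx2, Cbx7 or Cbx8, compacts chromatin, and attaches ubiquitin to histone H2A through a RING ligase that Bmi1 supports. In blood, Bmi1 is known for the self-renewal of stem cells, Ezh2 is abundant in dividing progenitors, and Ezh1 is the form kept in resting cells.

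The promoter windows of the 3 members on which the results turn are shown here as they stand in RefSeq (GRCm38.p6), from 250 bases before to 50 bases after the annotated start, each on the strand of its gene. They are printed so that the letters near each start can be seen beside the levels that follow. Capitals mark a match to a short motif: GGGTCA, a retinoid receptor half-site, for Cbx8, and the E2F-type motifs TTTCCCGC for Suz12 and TTTGGCGC for Ezh2. The windows are chr11:119040864-119041163 (minus strand) for Cbx8, chr11:79992856-79993155 (plus strand) for Suz12 and chr6:47594981-47595280 (minus strand) for Ezh2.
Cbx8: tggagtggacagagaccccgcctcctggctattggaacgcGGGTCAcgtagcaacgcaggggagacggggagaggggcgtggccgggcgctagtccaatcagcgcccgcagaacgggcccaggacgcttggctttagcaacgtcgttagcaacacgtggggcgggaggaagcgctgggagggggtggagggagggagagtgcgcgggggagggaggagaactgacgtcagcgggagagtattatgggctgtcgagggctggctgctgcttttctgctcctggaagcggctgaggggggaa
Suz12: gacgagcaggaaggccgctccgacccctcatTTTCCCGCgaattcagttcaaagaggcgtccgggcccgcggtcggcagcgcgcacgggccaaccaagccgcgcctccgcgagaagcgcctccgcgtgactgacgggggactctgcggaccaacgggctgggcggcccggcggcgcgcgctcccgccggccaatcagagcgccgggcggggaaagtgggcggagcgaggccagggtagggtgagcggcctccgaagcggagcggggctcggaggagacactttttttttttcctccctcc
Ezh2: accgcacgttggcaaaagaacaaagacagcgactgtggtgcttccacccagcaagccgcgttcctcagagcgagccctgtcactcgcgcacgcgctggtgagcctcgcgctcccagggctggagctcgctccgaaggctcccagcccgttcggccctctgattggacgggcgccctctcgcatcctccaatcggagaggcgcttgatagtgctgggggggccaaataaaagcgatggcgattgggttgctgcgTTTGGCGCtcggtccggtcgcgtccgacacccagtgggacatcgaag

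The search covered both strands of the windows of 7 of the 8 members, all but Cbx2, and of 32851 windows of all genes. As half-sites it took AGGTCA, held by 16.3% of all windows, AGTTCA, held by 14%, GGGTCA, held by 13.7%, and GGTTCA, held by 10.4%. As E2F-type motifs it took TTTCCCGC, held by 1.07% of all windows, TTTCGCGC, held by 0.323%, TTTGCCGC, held by 0.441%, and TTTGGCGC, held by 0.514%. Counted from 0 at the start, the Cbx8 match lay at positions -210 to -205, that of Suz12 at -219 to -212 and that of Ezh2 at 3 to 10. Suz12 also held AGTTCA, at -205 to -200. Bmi1 and Cbx7 held GGGTCA, Cbx7 also held GGTTCA, and Eed and Ezh1 had none of the 8 strings. No match overlapped another. Any of the half-sites occurred in 43.7% of all windows and any of the E2F-type motifs in 2.26%. A match is a string of letters and not evidence of a bound site.

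The values are log2 intensities, each the median over the probe sets of a gene. The intensity scale differs between probe sets, so levels are compared between arrays and not between genes. Median intensities per array lay between 98.6 and 115.3 on the linear scale. With 2 to 4 arrays in a group, that number limits how precise any value can be. Replicates of SLAM cells were less alike than those of KLS cells. The correlation across genes between arrays of a group was 0.821 in mCG-PR SLAM and 0.828 in WT SLAM, and 0.950 to 0.966 within the KLS groups. The median SD within groups was 0.33 in SLAM and 0.22 in KLS, while the fit uses a single spread for both. A second fit that weights the arrays by sorted population is therefore given beside each call of a Polycomb gene that it changes. The counts of neutrophil and mitotic genes past the threshold come from the first fit alone.

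The sort itself was visible in the arrays. Cd48, which the SLAM gate normally excludes, was 4.24 to 4.26 in mCG-PR SLAM and 4.70 to 5.56 in WT SLAM, below its 8.28 to 9.61 in KLS cells. Slamf1, the receptor CD150, was 6.21 to 6.63 in mCG-PR SLAM and 7.47 to 7.68 in WT SLAM, against 5.17 to 6.31 in KLS cells. In mCG-PR SLAM it overlapped KLS cells. Kit was 9.56 to 10.51 on all arrays. Flt3 was 8.35 to 8.51 in mCG-PR SLAM and 7.47 to 7.65 in WT SLAM, below its 10.11 to 10.90 in KLS cells. Procr was 8.33 to 9.69 in mCG-PR SLAM and 7.00 to 8.80 in WT SLAM, against 6.29 to 7.55 in KLS cells. Cd34 (6.87 to 8.72 and 7.59 to 8.79) and Ly6a (8.85 to 9.77 and 8.75 to 9.63) overlapped between the SLAM groups. The SLAM groups were thus not alike in every sort marker. Other measures also moved with genotype among the SLAM arrays, and their part in the results below was not tested. All 7 listed neutrophil genes were lower in mCG-PR SLAM, 2 of them past the threshold (28.6%, beside 1.73% of all tested genes). The mean of the 7 was 7.54 to 8.59 in mCG-PR SLAM and 9.02 to 11.14 in WT SLAM. The 11.14 came from WT SLAM replicate 2 alone, and replicate 1, at 9.02, lay within the 8.95 to 9.05 of WT KLS. A list of B cell genes was also higher on WT SLAM replicate 2 than on replicate 1 (7.36 and 5.88). A monocyte and macrophage list was not (7.32 and 7.35). The mean of 2 Y-linked genes was 4.23 to 4.28 in mCG-PR SLAM and 7.93 to 8.21 in WT SLAM, so whatever separates those mice on the Y chromosome cannot be told apart from genotype. In KLS cells only mCG-PR KLS of 6 weeks replicate 3 had such a low value, 4.53.

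Cbx8 was high in SLAM cells of mCG-PR mice and at a lower level in the other 4 groups. This chromobox subunit lets PRC1 bind the methyl mark. Its log2 intensity was 8.58 and 8.25 in mCG-PR SLAM, against 6.68 and 6.56 in WT SLAM. In KLS cells it was 6.75, 7.17 and 6.61 in mCG-PR mice of 6 weeks and 7.03 and 6.38 in mCG-PR mice of 13 weeks, against 6.77, 6.5, 6.60 and 7.10 in WT mice. Both mCG-PR SLAM arrays lay above all 11 others, and the 4 other groups overlapped. The lowest of these was mCG-PR KLS of 13 weeks replicate 2, and the 2 WT SLAM arrays lay inside the range of the KLS arrays.

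The group means of Cbx8 were 8.42 ± 0.23 in mCG-PR SLAM and 6.62 ± 0.09 in WT SLAM (SD, n = 2 each), a difference of 1.80 ± 0.27 on the log2 scale (SE), or 3.48-fold. Against mCG-PR KLS of 6 weeks, mCG-PR SLAM was higher by 1.57 ± 0.25, or 2.98-fold. The same step in WT mice, WT SLAM minus WT KLS, was -0.12 ± 0.24. Between genotypes in KLS cells the difference was 0.10 ± 0.21 at 6 weeks and -0.03 ± 0.24 at 13 weeks of the mCG-PR mice. The mCG-PR KLS array of 6 weeks with the low Y-linked signal had a Cbx8 value of 6.61, within the range of the other KLS arrays. That value describes KLS cells only. In SLAM cells the low Y-linked signal went with the genotype, so its part in the Cbx8 difference there was not tested.

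**Figure D1:**
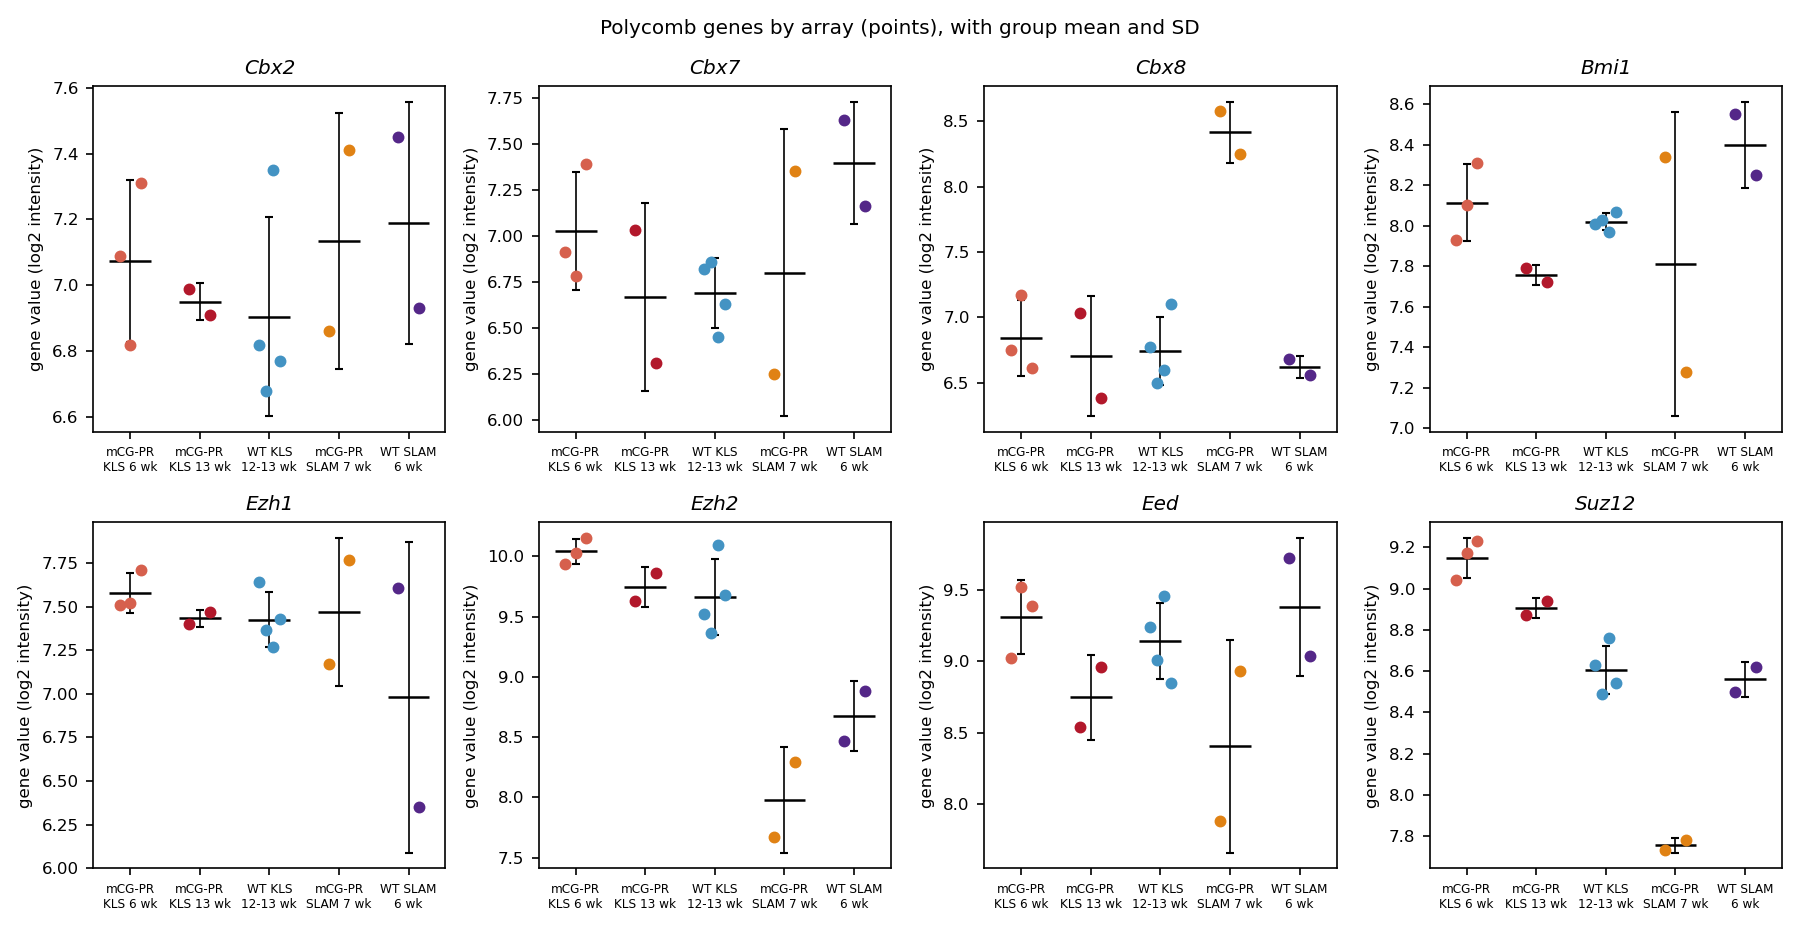
Log2 intensity of each of the 8 Polycomb genes (vertical axes, a scale of its own per gene) on the 13 arrays in 5 groups (horizontal axes); points are arrays, the long bar is the group mean and the error bar the SD. Cbx8 in mCG-PR SLAM (8.25 and 8.58) stands above every other array, while Ezh2 and Suz12 are lowest in mCG-PR SLAM.

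The 5 probe sets of Cbx8 did not all move alike. The probe set 4475126 read 8.58 and 8.25 in mCG-PR SLAM, against 7.03 and 7.48 in WT SLAM, and 4938653 was also higher in mCG-PR SLAM, by 1.03. The probe set 5517742 read 9.26 and 8.65 in mCG-PR SLAM, against 8.24 and 2.59 in WT SLAM. The WT arrays thus differed by far more than the mCG-PR arrays there, and 5309593 showed the same, with 9.46 and 9.05 in mCG-PR SLAM against 6.15 and 8.92 in WT SLAM. The probe set 4853635 went the other way and was lower in mCG-PR SLAM, at 5.35 and 5.58 against 6.68 and 6.56 in WT SLAM. The median thus fell on different probe sets in the 2 genotypes: the gene value was that of 4475126 on both mCG-PR SLAM arrays and that of 4853635 on both WT SLAM arrays. In all, 4 of 5 probe sets were higher and 1 was lower with no overlap between the groups, where 18.0% of all probe sets were higher and 16.6% lower with no overlap. The difference of the gene, 1.80, was 0.82 without 5517742 and 1.02 without 5309593, and 1.52 to 2.08 without each of the 3 others in turn. The mean of the probe sets in place of the median gave 1.26. With 4 of 5 probe sets higher, leaving out 1 could hardly reverse the direction, and Cbx8 was selected on this level. The unchanged direction is thus no separate support. The size rests on the 2 probe sets in which the WT SLAM arrays disagreed.

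**Figure D2:**
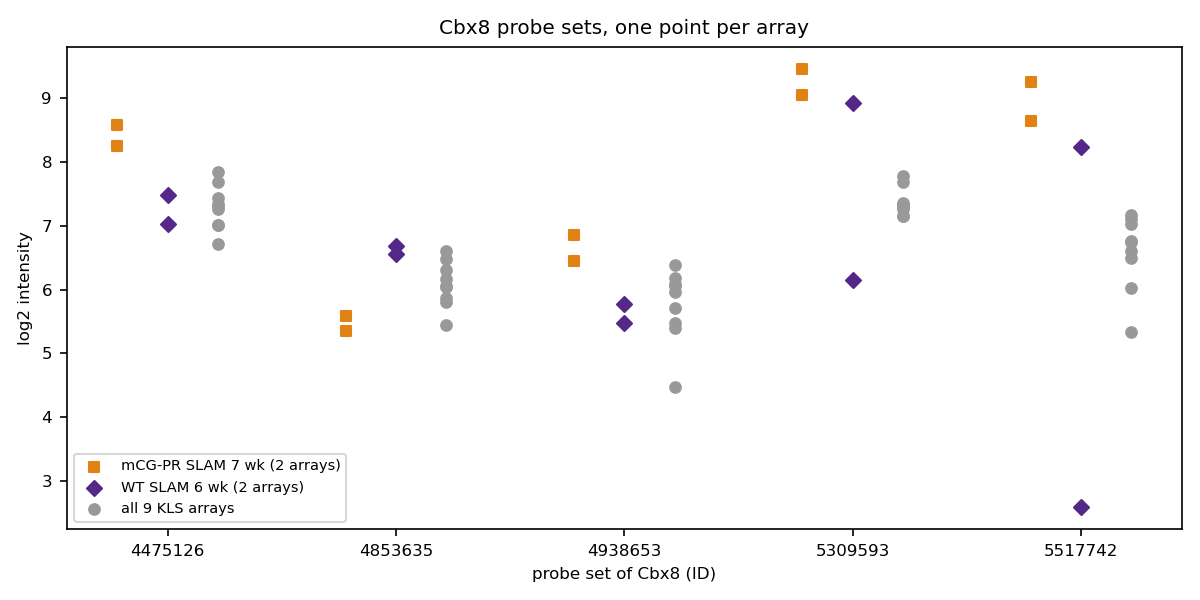
Log2 intensity (vertical axis) of the 5 Cbx8 probe sets (horizontal axis, by ID), with squares for mCG-PR SLAM, diamonds for WT SLAM and grey circles for the 9 KLS arrays. The mCG-PR SLAM arrays are above WT SLAM in 4 probe sets and below in 4853635, and the WT SLAM arrays are far apart in 5517742 (8.24 and 2.59).

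Suz12, the PRC2 scaffold, was lowest in mCG-PR SLAM cells. It was 7.73 and 7.78 in mCG-PR SLAM, against 8.50 and 8.62 in WT SLAM. The KLS arrays read 9.04, 9.17 and 9.23 in mCG-PR mice of 6 weeks and 8.87 and 8.94 in mCG-PR mice of 13 weeks, against 8.63, 8.49, 8.76 and 8.54 in WT mice. The order was thus opposite in the 2 populations: both mCG-PR SLAM arrays lay below all others, and all 5 mCG-PR KLS arrays lay above all 4 WT KLS arrays.

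Between genotypes in SLAM cells Suz12 differed by -0.80 ± 0.18 (limma, adjusted p = 0.0354), and 2.6% of all tested genes passed in that comparison, 0.869% higher and 1.73% lower. Of the 7 members beside Cbx8, Suz12 alone passed there. No overlap between the groups was seen for Cbx8, higher like 16.4% of genes, and for Ezh2, Eed and Suz12, lower like 18.8% of genes. With arrays weighted by population only 3 genes of all those tested passed, and the adjusted p of Suz12 was 0.505. With the SLAM arrays alone it was 0.784. Without mCG-PR SLAM replicate 1 it was 0.0656, and without WT SLAM replicate 2 it was 0.083, with differences of -0.78 and -0.74. The mean over probe sets gave -0.58 (adjusted p = 0.0996), and the median of the brighter probe sets of each gene gave -0.23 (adjusted p = 0.627). Of the 22 probe sets of Suz12, 14 were lower and 8 higher in mCG-PR SLAM, with 3 lower and 3 higher without overlap, and the extremes were -4.86 and 1.34. The gene-level value therefore depends on how its probe sets are summarised. Against mCG-PR KLS of 6 weeks the decrease was larger, at -1.39 ± 0.16 (adjusted p = 0.000156), with 20 of 22 probe sets lower, where 47.1% of all probe sets were higher. In that comparison 22.6% of all tested genes passed, 2.36% higher and 20.3% lower, and of the 7 members beside Cbx8, Ezh2 and Suz12 did. Lower without overlap were 35.0% of genes, Ezh2, Eed and Suz12 among them, and higher without overlap 13.2%, with Cbx8. In WT mice SLAM of 6 weeks minus KLS of 12 to 13 weeks, which also differ in age, gave -0.05 ± 0.16 for Suz12 (limma, adjusted p = 0.873).

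In KLS cells the Suz12 difference was 0.54 ± 0.14 for mCG-PR mice of 6 weeks over WT (adjusted p = 0.543) and 0.30 ± 0.16 for those of 13 weeks (adjusted p = 0.698). Neither passed, and none of the 7 members beside Cbx8 did: 0.00945% of tested genes, a single gene, passed at 6 weeks. At 13 weeks and over both ages the share passing in the limma fit was 0%, with 782 and 760 genes at an unadjusted p under 0.05. Over both ages the difference was 0.44 ± 0.13 (adjusted p = 0.433), and 3.55% of genes were higher in mCG-PR KLS with no overlap, as Suz12 was. At 6 weeks 21 of its 22 probe sets were higher, like 62.5% of all probe sets, and 6 of them were higher without overlap, like 6.21% of all. At 13 weeks 10 were higher and 12 lower, where 57.3% of all probe sets were higher. The difference of the genotype difference between SLAM and KLS was -1.24 ± 0.23 for Suz12 (adjusted p = 0.0233), where 1.07% of genes passed, 0.255% above 0 and 0.812% below. That call was lost with weights by population (adjusted p = 0.297), and the value was -0.77 with probe sets averaged (adjusted p = 0.192) and -0.55 with the brighter ones (adjusted p = 0.384).

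Ezh2, the catalytic subunit of PRC2 linked to dividing cells, was lower in SLAM than in KLS cells of either genotype. It was 7.67 and 8.29 in mCG-PR SLAM and 8.47 and 8.88 in WT SLAM. Among KLS arrays it was 9.94, 10.03 and 10.15 in mCG-PR mice of 6 weeks and 9.63 and 9.86 in those of 13 weeks, against 9.52, 9.36, 10.09 and 9.68 in WT mice. All 4 SLAM arrays lay below all 9 KLS arrays. The KLS groups overlapped, because WT KLS replicate 3 was among the highest.

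In mCG-PR mice Ezh2 fell by 2.06 on the log2 scale in SLAM against KLS of 6 weeks (SE 0.25, adjusted p = 0.000163), a 4.17-fold decrease. This call held under every alternative that was run. Of its 24 probe sets 23 were lower, 21 of them without overlap, where 21.8% of all probe sets were lower and 14.1% higher without overlap. In WT mice Ezh2 fell by 0.99 in SLAM against KLS (SE 0.23, adjusted p = 0.0174), and of the 7 members beside Cbx8 it alone was among the 11.6% of genes that passed, 2.4% higher and 9.21% lower. That call was lost with weights by population (adjusted p = 0.094), and without WT SLAM replicate 1 (-0.79, adjusted p = 0.0963). Again 23 of 24 probe sets were lower, 17 of them without overlap, where 14.8% of all probe sets were lower and 12.0% higher without overlap. As a gene, Ezh2 was lower without overlap like 22.3% of genes. Between genotypes the Ezh2 difference was -0.70 ± 0.27 in SLAM cells (adjusted p = 0.19) and 0.38 ± 0.21 in KLS cells at 6 weeks (adjusted p = 0.779). The SLAM groups did not overlap for Ezh2. All 24 probe sets were higher in mCG-PR KLS of 6 weeks than in WT KLS, where 62.5% of all probe sets were higher with a median difference of 0.1. Of the 24, 3 were higher without overlap, where 6.21% of all probe sets were.

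Eed, the PRC2 subunit that recognises the methyl mark, varied more between replicates. It was 7.88 and 8.93 in mCG-PR SLAM and 9.72 and 9.04 in WT SLAM. KLS cells gave 9.02, 9.52 and 9.39 in mCG-PR mice of 6 weeks and 8.54 and 8.96 in those of 13 weeks, against 9.24, 9.01, 9.46 and 8.85 in WT mice. The SLAM groups did not overlap, but the 2 mCG-PR SLAM arrays were further apart from each other than the second of them was from WT SLAM. The difference in SLAM cells was -0.98 ± 0.34 (adjusted p = 0.145), or -1.5 without mCG-PR SLAM replicate 2 (adjusted p = 0.0247). In mCG-PR SLAM against mCG-PR KLS of 6 weeks it was -0.90 ± 0.31 (adjusted p = 0.0543), with 14 of 17 probe sets lower. This value passed when probe sets were averaged (-1.0, adjusted p = 0.00198), when only the brighter ones were used (-0.95, adjusted p = 0.0188), and without mCG-PR SLAM replicate 2 (-1.43, adjusted p = 0.00861).

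Ezh1, the alternative catalytic subunit, did not pass in any comparison with all arrays. It was 7.17 and 7.77 in mCG-PR SLAM and 7.61 and 6.35 in WT SLAM. In KLS cells it was 7.51, 7.52 and 7.71 in mCG-PR mice of 6 weeks and 7.40 and 7.47 in those of 13 weeks, against 7.64, 7.37, 7.27 and 7.43 in WT mice. WT SLAM replicate 2 was the lowest array by a wide margin, and the other SLAM array of that genotype lay with the KLS arrays. The SLAM difference was 0.49 ± 0.33 with both WT arrays and -0.14 without WT SLAM replicate 2. Without WT SLAM replicate 1 it was 1.12 (adjusted p = 0.0251), and WT SLAM minus WT KLS, at -0.44 ± 0.28 with all arrays, was then -1.07 (adjusted p = 0.0136).

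Bmi1, partner of the PRC1 ligase, was 8.34 and 7.28 in mCG-PR SLAM, against 8.55 and 8.25 in WT SLAM. The KLS values were 7.93, 8.10 and 8.31 in mCG-PR mice of 6 weeks and 7.79 and 7.72 in those of 13 weeks, against 8.01, 8.03, 7.97 and 8.07 in WT mice. The WT KLS arrays were nearly equal, and the 2 mCG-PR KLS arrays of 13 weeks lay below them, as for 10.2% of all tested genes. No comparison passed with all arrays: the SLAM difference was -0.58 ± 0.28 (adjusted p = 0.293), or -1.11 without mCG-PR SLAM replicate 1 (adjusted p = 0.0203), and the KLS difference at 13 weeks was -0.26 ± 0.24 (adjusted p = 0.838).

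Cbx7, a chromobox subunit known from stem cell self-renewal, was 6.25 and 7.35 in mCG-PR SLAM, against 7.63 and 7.16 in WT SLAM. Its KLS values were 6.91, 6.78 and 7.39 in mCG-PR mice of 6 weeks and 7.03 and 6.31 in those of 13 weeks, against 6.82, 6.86, 6.45 and 6.63 in WT mice. In WT mice both SLAM arrays lay above all KLS arrays, as for Bmi1 and 12.9% of genes, a step of 0.71 ± 0.30 (adjusted p = 0.149).

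Cbx2, the remaining chromobox member and a neighbour of Cbx8 on chromosome 11, was 6.86 and 7.41 in mCG-PR SLAM, against 7.45 and 6.93 in WT SLAM. KLS arrays had 7.09, 6.82 and 7.31 in mCG-PR mice of 6 weeks and 6.99 and 6.91 in those of 13 weeks, against 6.82, 6.68, 7.35 and 6.77 in WT mice. All 5 groups overlapped. Its SLAM difference was -0.05 ± 0.28 (adjusted p = 0.956) where that of Cbx8 was 1.80.

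**Figure D3:**
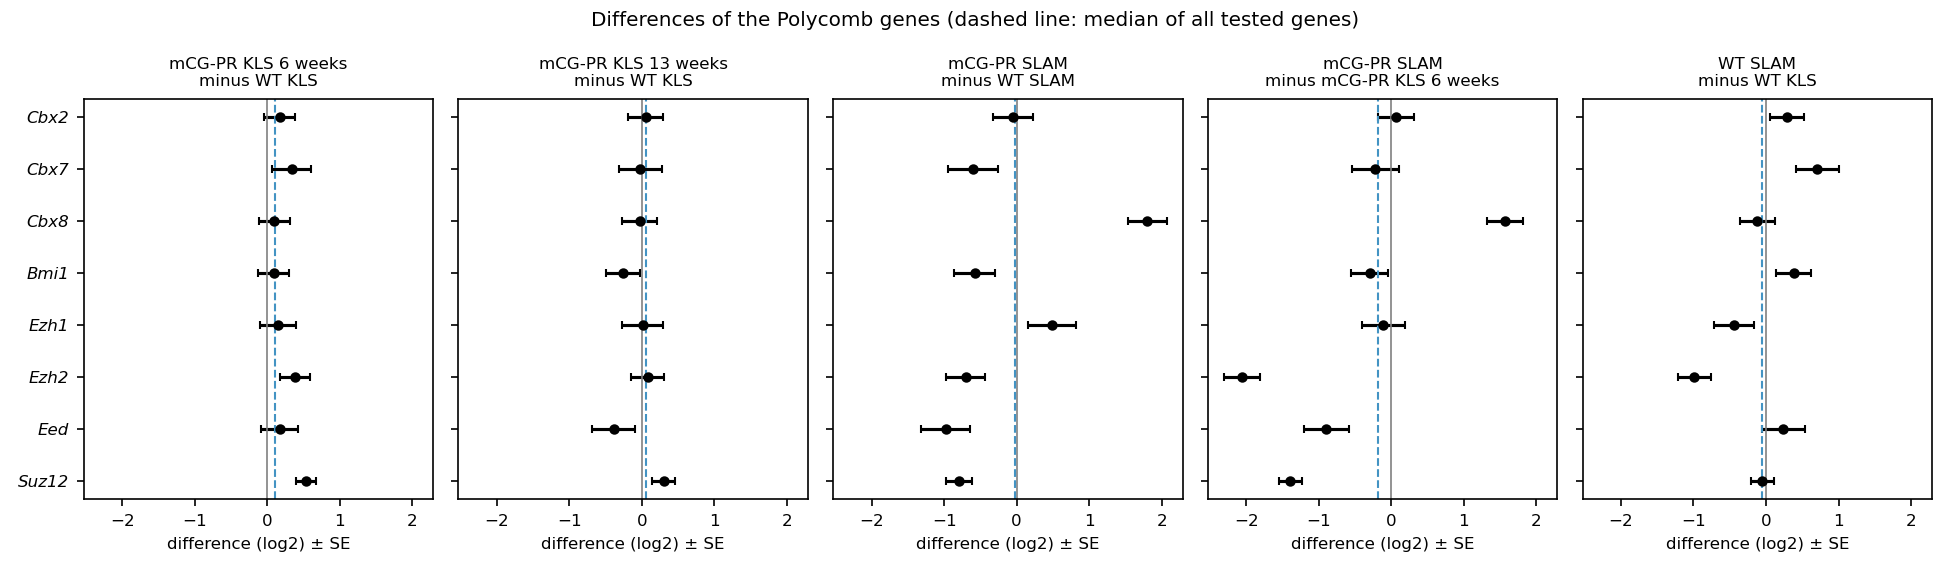
Differences of the 8 Polycomb genes (log2, horizontal axes, point and SE) in 5 comparisons, with the median of all tested genes as a dashed line. Cbx8 lies at 1.80 and 1.57 in the comparisons with mCG-PR SLAM, on the opposite side from Suz12 and Ezh2.

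Seen over the whole set, the median difference of the 8 members between genotypes in SLAM cells was -0.59, beside -0.02 for all tested genes. That value depends on the processing. Across the alternatives that kept all replicates, Cbx7 ranged from -0.60 to 0.40 and Bmi1 from -0.58 to -0.13. Ezh2 (-0.70 to -0.39), Eed (-0.98 to -0.42) and Suz12 (-0.80 to -0.23) stayed below 0. Of the probe sets of Bmi1, 7 were higher and 7 lower in mCG-PR SLAM, and of those of Cbx7, 5 and 5. In KLS cells it was 0.17 at 6 weeks, beside 0.11 for all genes, and -0.01 at 13 weeks, beside 0.05. For mCG-PR SLAM against mCG-PR KLS of 6 weeks it was -0.26, beside -0.19, and for WT SLAM against WT KLS 0.10, beside -0.05. Each comparison between populations shares SLAM arrays with the genotype comparison in SLAM cells and KLS arrays with a genotype comparison in KLS cells, so these medians are not separate observations.

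All 8 members had lower means in mCG-PR KLS of 13 weeks than in mCG-PR KLS of 6 weeks, with a median of -0.27, beside -0.07 for all tested genes. Bmi1, Ezh1, Ezh2, Eed and Suz12 did so with no overlap between the arrays, and 20.1% of all tested genes were lower without overlap. Eed had the greatest of these differences, -0.56 ± 0.31 (adjusted p = 0.821). In this limma comparison 0% of genes passed, and 669 had an unadjusted p under 0.05. None of the 7 members beside Cbx8 was among those 669.

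**Figure D4:**
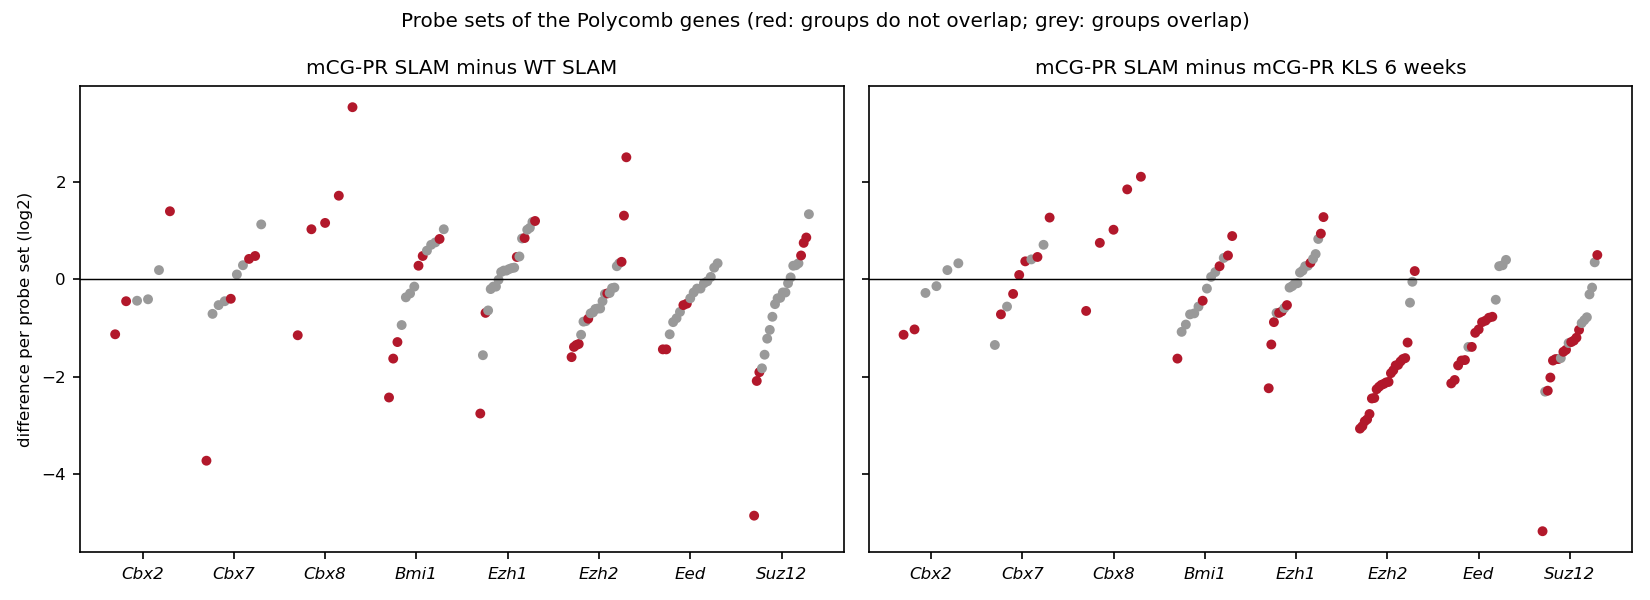
Difference of each probe set of the 8 genes (log2, vertical axes) in mCG-PR SLAM minus WT SLAM (left) and mCG-PR SLAM minus mCG-PR KLS of 6 weeks (right), ordered within each gene; red points have no overlap between the groups and grey points overlap. Ezh2 has 23 of 24 probe sets below 0 on the right, and Suz12 has 14 of 22 below 0 on the left.

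Of 48 other Polycomb, related chromatin and target genes that were listed, 40 were tested. Between genotypes in SLAM cells 24 of the 40 were higher and 16 lower, with a median of 0.13, beside -0.02 for all genes. Of these, Pcgf3, which builds a variant PRC1, alone passed. That is 2.5% of the 40, near the 2.6% of all tested genes that passed there. Pcgf3 was 7.04 to 7.40 in mCG-PR SLAM and 8.08 to 8.40 in WT SLAM, a difference of -1.02 ± 0.24 (adjusted p = 0.0393). Pcgf3 also passed for the difference between SLAM and KLS (-1.34 ± 0.28, adjusted p = 0.0348). This was again 2.5% of the 40, beside 1.07% of all tested genes. With arrays weighted by population both calls were lost, with an adjusted p of 0.491 in SLAM cells and 0.297 for the difference between SLAM and KLS. Without mCG-PR SLAM replicate 1 the adjusted p was 0.113 in SLAM cells, and without WT SLAM replicate 1 it was 0.0834. E2f6, a repressor in a variant PRC1, was at 1.12 ± 0.38 (adjusted p = 0.13), Ring1, the RING ligase, at -0.93 ± 0.26 (adjusted p = 0.0762), and Jarid2, a PRC2 cofactor, at -0.75 ± 0.23 (adjusted p = 0.0933). The heterochromatin gene Cbx5 had means of 8.60 in mCG-PR SLAM and 9.66 in WT SLAM, a difference of -1.06. Scmh1 of canonical PRC1 had means of 7.27 and 8.13. Neither passed. In KLS cells none of the 40 passed in either age. The values farthest from 0 there were 0.67 ± 0.28 for Cdkn1a at 6 weeks (adjusted p = 0.727) and -0.76 ± 0.26 for Cbx3 at 13 weeks (adjusted p = 0.6).

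Between populations each of the 40 that passed was lower in SLAM cells. In mCG-PR mice 9 of the 40 fell against KLS of 6 weeks, which is 22.5%, beside 20.3% of all tested genes. In WT mice 6 of the 40 fell, which is 15%, beside 9.21% of all tested genes. With arrays weighted by population 4 of the 9 and 2 of the 6 passed. Mtf2, which brings PRC2 to CpG islands, was 8.90 to 9.02 in mCG-PR SLAM, against 10.31 to 10.67 in mCG-PR KLS of 6 weeks, a difference of -1.48 ± 0.18 (adjusted p = 0.000209). In WT mice Mtf2 was 9.25 to 9.27 in SLAM against 10.35 to 10.75 in KLS, a difference of -1.26 ± 0.17 (adjusted p = 0.000987). Mtf2 thus fell in both genotypes, and its difference between genotypes in SLAM cells was -0.30 ± 0.20 (adjusted p = 0.483).

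The heterochromatin chromobox genes, which read methylated lysine 9 and not the Polycomb mark, were among those that fell in mCG-PR SLAM against KLS of 6 weeks. Cbx5 differed by -2.25 ± 0.43 (adjusted p = 0.00248), Cbx3 by -1.30 ± 0.28 (adjusted p = 0.00471) and Cbx1 by -0.58 ± 0.18 (adjusted p = 0.0323; 0.138 with arrays weighted by population). Pcgf5 at -0.92, Usp7 at -0.93, Pcgf3 at -0.82, Asxl2 at -0.81 and Ring1 at -0.79 also passed, and of these Usp7 alone did with the weights (adjusted p = 0.0305, against 0.0546 to 0.114 for the other 4). In WT mice Pcgf5 at -1.19, Cbx3 at -1.08, Asxl2 at -0.77, Aebp2 at -0.75 and Kdm2b at -0.69 passed beside Mtf2, and with the weights Pcgf5 and Mtf2 did (adjusted p of 0.0391 and 0.0158, against 0.0835 to 0.224 for the others). The medians of the 40 were -0.37 in mCG-PR mice, beside -0.19 for all genes, and -0.25 in WT mice, beside -0.05.

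Cell cycle inhibitors that Polycomb complexes are known to silence did not pass in any comparison. Cdkn2a, which encodes p16 and p19, was 7.32 to 7.35 in mCG-PR SLAM and 7.28 to 7.60 in WT SLAM. Its difference was -0.10 ± 0.21 (adjusted p = 0.856), and that of its neighbour Cdkn2b was 0.33 ± 0.28 (adjusted p = 0.586). Cdkn1a differed most, by 0.62, with 6.18 to 6.90 in mCG-PR SLAM and 5.88 to 5.97 in WT SLAM. It was higher without overlap, like 16.4% of genes. Cdkn1c was 7.10 to 7.53 in mCG-PR SLAM and 7.08 to 7.14 in WT SLAM. Of the 4 listed inhibitors 3 were thus higher and 1 lower, with a median of 0.27, beside -0.02 for all tested genes.

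Genes of mitosis were lower in SLAM than in KLS cells of both genotypes, as Ezh2 was, while Suz12 differed by -1.39 in mCG-PR mice and by -0.05 in WT mice. The mean of 17 measured genes of a list of 19 mitotic genes was 6.13 and 6.42 in mCG-PR SLAM and 6.36 and 7.24 in WT SLAM. The KLS arrays gave 8.15, 8.67 and 8.46 in mCG-PR mice of 6 weeks and 8.22 and 8.36 in those of 13 weeks, against 7.68, 7.29, 8.25 and 7.78 in WT mice. SLAM arrays were below every KLS array, and mCG-PR KLS was mostly above WT KLS, with WT KLS replicate 3 inside its range. All 17 genes were lower in mCG-PR SLAM than in mCG-PR KLS of 6 weeks, 15 of them past the threshold. That is 88.2% of the list, beside 20.3% of all tested genes. All 17 were also lower in WT SLAM than in WT KLS, 8 past the threshold. That is 47.1% of the list, beside 9.21% of all tested genes. In WT SLAM against WT KLS the median of the 17 was -1.07, beside -0.99 for Ezh2 and -0.05 for Suz12. Between genotypes in SLAM cells 13 of 17 were lower, and none passed in limma. The part of cell division in the values of Ezh2 and Suz12 was not tested.

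Since the arrays fall into 2 sorted populations, the relation is described within the 9 KLS arrays. Over these, Pearson's r with the mitotic mean was 0.86 for Ezh2, 0.89 for Suz12 and 0.20 for Cbx8. Ezh2 and Suz12 had an r of 0.80 with each other, and Cbx8 and Suz12 an r of 0.08. The points share a platform, a processing run and the 3 KLS groups, and they are given as a description.

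**Figure D5:**
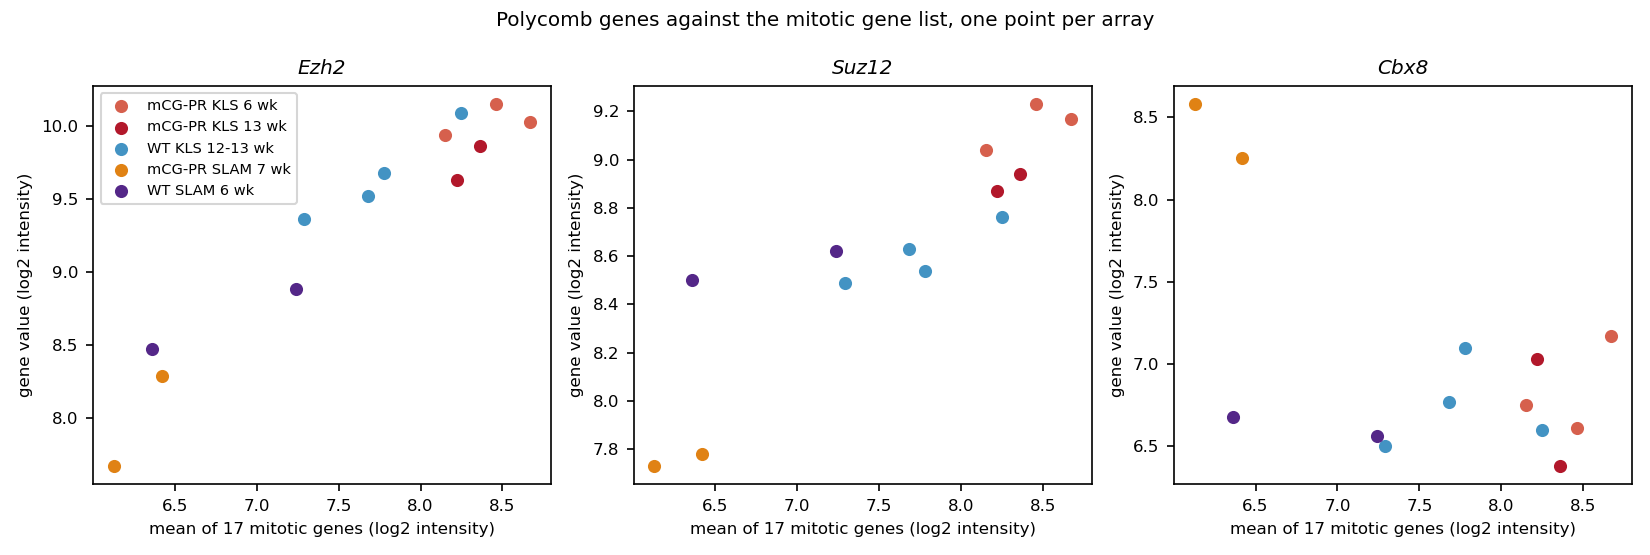
Log2 intensity of Ezh2, Suz12 and Cbx8 (vertical axes) against the mean of 17 mitotic genes (log2, horizontal axes), 1 point per array, coloured by group. Among the KLS arrays Ezh2 and Suz12 are higher where the mitotic mean is higher, the WT SLAM arrays lie at the WT KLS level for Suz12 (8.50 and 8.62), and the mCG-PR SLAM arrays (mitotic mean 6.13 and 6.42) are high for Cbx8 alone.

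The genes whose pattern over the 13 arrays was most like that of Cbx8 were Zswim8 (r = 0.886), Ube2e2 (0.883), Hoxa6 (0.874), Irak3 (0.87) and Cbfa2t3 (0.867). Within the 9 KLS arrays the same r values were between -0.191 and 0.38, so the likeness was not seen within KLS cells. The genes most like Ezh2 were Cdc25c (r = 0.988), Smc2 (0.978), Cd180 (0.976), Tmem131l (0.975) and Adss (0.974). For these the r values within KLS arrays stayed between 0.734 and 0.938.

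The locus that carries the fusion gives no separate reading of it here, because only the gene value of Ctsg was taken. Whether any of its probe sets tell the alleles apart was not examined. Ctsg was 5.72 to 6.00 in mCG-PR SLAM and 6.22 to 7.47 in WT SLAM. In KLS samples it was 8.23 to 9.54 in mCG-PR mice of 6 weeks and 8.62 to 9.08 in those of 13 weeks, against 8.10 to 9.32 in WT mice.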

How the data were processed

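Expression was measured on 13 Affymetrix Mouse Exon 1.0 ST arrays, from 20 ng of total RNA per sample, per the labels' protocols. The authors deposited 1 intensity value per probe set and array, and the submitters' processing notes name RMA and mm9. Their versions and settings are not stated in the labels. The deposited intensities were linear (2.34 to 21748.2), so log2 was taken, and no scaling between arrays was added.

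Probe sets were named through the platform annotation: 208397 of 229581 had 1 gene symbol, 3965 several and 17219 none, and those with several or none were left out. A gene's value is the median of its probe sets. Genes needed 3 or more of them (15123 of 16299) and a mean log2 intensity above the 30th percentile to be tested. Differences were tested in limma 3.58.1 (R 4.3.3) with all 13 arrays in a fit of 5 groups, two-sided, with Benjamini-Hochberg adjustment over all tested genes and a threshold of 0.05. The comparison over both ages merged the mCG-PR KLS groups. Values after ± are SE unless marked SD.

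The members, gene lists, motifs and named genes were chosen with earlier results of these data known. All 8 members were named in the comparisons, with listed genes past the threshold or, where these were few, those farthest from 0, and the 5 genes with the highest r. Jarid2, Scmh1, Cdkn2a and Cdkn2b, and for SLAM cells Cbx5, Cdkn1a and Cdkn1c, were named after their values were seen. Replicate numbers were checked for pairing: of 21 same-numbered pairs of arrays, the correlation of deviations was -0.07 to 0.08, so the numbers do not pair samples. The test was tried on simulated data. Alternatives covered the filter, the summary of probe sets, normalisation, the replicate block, the arrays in the fit, weights by population and each replicate left out. The leaving out of single Cbx8 probe sets, and the alternatives for other Polycomb genes, were added after seeing the data. Cbx8 is in no count of members that passed.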

Additional observations from a re-analysis of the deposited data

Results flagged for a closer look

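The genotype difference of Suz12 was not alike in SLAM and KLS cells in the fit with all arrays. It was lower in SLAM cells (7.76 in mCG-PR SLAM and 8.56 in WT SLAM) and higher in KLS cells (9.05 in mCG-PR KLS over both ages and 8.61 in WT KLS). The KLS side merged mCG-PR mice of 6 and 13 weeks, and no WT KLS mouse was 6 weeks old. The KLS difference passed at neither age (limma, 0.54, adjusted p = 0.543 at 6 weeks, and 0.30, adjusted p = 0.698 at 13 weeks). The SLAM difference minus the KLS difference was -1.24 ± 0.23 (limma, adjusted p = 0.0233). That call was lost with arrays weighted by population (adjusted p = 0.297), with probe sets averaged (0.192) and with the brighter ones (0.384). The low Y-linked signal of both mCG-PR SLAM arrays goes with the genotype there.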

How the results depend on the processing

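No result changed direction past the threshold under any alternative. The number of genes passing did change, as follows, with the main value in brackets. Between genotypes in SLAM cells (275) it was 171 without a filter, 421 with probe sets averaged, 451 with the brighter probe sets, 69 with the replicate block, 0 with only the groups compared and 3 with weights by population. Of the 7 members beside Cbx8, the number passing there (1, Suz12) was 0 with no filter, the mean, the brighter probe sets, the block, only the groups compared or the weights. For WT SLAM against WT KLS (1229) it was 410 with the block, 330 with weights, 439 with WT KLS replicates 3 and 4 only and 342 with replicates 1 and 2 only; the single member, Ezh2, was lost (0) with the block, the weights or WT KLS replicates 1 and 2 only. For mCG-PR SLAM against mCG-PR KLS of 6 weeks (2394) it was 1520 with the block, 1589 with only the groups compared and 1386 with weights. For the SLAM minus KLS genotype difference (113) it was 62 without a filter, 193 with the brighter probe sets, 16 with the block, 0 with weights, 0 with WT KLS replicates 3 and 4 only and 33 with replicates 1 and 2 only. Its single member, Suz12, was lost (0) with the mean, the brighter probe sets, the block, the weights or either pair of WT KLS arrays. For mCG-PR KLS of 6 weeks (1) the count was 0 with the mean, the block or WT KLS replicates 3 and 4 only, 2 with only the groups compared and 12 with weights. At 13 weeks (0) it was 12 with only the groups compared. Over both ages (0) it was 2 without a filter, 1 with the mean, 2 with the brighter probe sets, 9 with only the groups compared, 12 with weights and 2 with WT KLS replicates 1 and 2 only. For 13 against 6 weeks (0) it was 1 with weights. The causes were not tested.

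With each replicate left out in turn, 371 to 825 genes and 0 to 2 members passed between genotypes in SLAM cells, 754 to 1360 genes and 1 member for WT SLAM against WT KLS, 1626 to 2160 genes and 2 to 3 members for mCG-PR SLAM against mCG-PR KLS of 6 weeks, and 26 to 568 genes and 0 to 1 members for the SLAM minus KLS difference. In KLS cells 0 to 3 genes passed at 6 weeks, 0 at 13 weeks, 0 to 6 over both ages and 0 for 13 against 6 weeks. Where a SLAM array was left out, the lone array was assumed to vary like the other groups. Among the 7 members beside Cbx8, mCG-PR SLAM against mCG-PR KLS of 6 weeks also called Bmi1 (-0.83, adjusted p = 0.0192) without mCG-PR SLAM replicate 1. The Suz12 difference in SLAM cells had an adjusted p of 0.055 without a filter. The Suz12 difference between SLAM and KLS had an adjusted p of 0.0607 without WT KLS replicate 2 and 0.0732 with the replicate block. The SLAM arrays, 2 per genotype, limit every SLAM value: a difference there rests on 4 mice, and the spread between SLAM replicates exceeded that between KLS replicates.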
